A study of Mus musculus with 2 samples.

Results

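In 1757 regions of the mouse genome the DNA of PDGFRα+ adipose progenitors was mostly unmethylated while the DNA of CD137+ adipose progenitors was mostly methylated. They were chosen by the measured levels themselves, from the authors' deposited table of differentially methylated regions: the methylation level had to be 0.20 or less in the PDGFRα+ library and 0.80 or more in the CD137+ library. Of the 27774 regions that the table lists on chromosomes 1 to 19, 6.33% met both limits, and 28141 regions are listed in all. A level is the authors' methylated fraction for a region, from 0 to 1, and is an average over all cells of a library, so that a share of fully methylated cells and partial methylation in every cell cannot be told apart.

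The study sequenced bisulfite-treated genomic DNA of 2 libraries from C57BL/6 mice, a CD137+ and a PDGFRα+ (CD140+) subgroup of adipose progenitors. Both were isolated with magnetic beads from subcutaneous or visceral fat, grown in culture, taken through an adipogenic cocktail and then given dexamethasone, a synthetic glucocorticoid, at 1 µM. Both groups therefore share the differentiation and the dexamethasone, and an untreated library is not analysed here. Which fat depot gave which library, how many mice were pooled and how deeply each library was sequenced is not stated in the labels. With only 1 library on each side, nothing can be set against a spread between replicates, and p-values are left out.

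In mammals DNA methylation sits mainly on the cytosine of CpG, a C followed by a G, and most CpGs of a differentiated cell are methylated. Short stretches of low methylation mark promoters, the DNA just before a transcription start, and enhancers, which lie within or far from genes and differ between cell types. PDGFRα is a growth factor receptor used to sort fibroblast-like fat progenitors, and CD137, encoded by Tnfrsf9, is used as a marker of beige fat precursors. Dexamethasone acts through the glucocorticoid receptor and is part of common recipes that turn progenitors into fat cells.

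Few of the 1757 regions touched a promoter, as was true of all listed regions, and those that did show what the selected DNA looks like there. RefSeq promoter windows, each 250 bases before to 50 bases after a transcription start, were at hand for 16456 of the 20151 protein-coding genes (81.7%) of all these chromosomes but 18. On those chromosomes 14 of 1700 member regions overlapped the window of a protein-coding gene (0.824%, Wilson 95% interval 0.491 to 1.38), against 206 of 26732 listed regions of any kind (0.771%). Of the 15 windows touched, 12 held 10 or fewer CpGs, and the median was 5 CpGs per window (range 2 to 50), against a median of 14 over all 20084 protein-coding windows, 44.1% of which hold 10 or fewer. The windows reached were thus mostly CpG-poor. CpGs were not counted for the windows reached by other listed regions, so this is not shown to be particular to member regions. The part of 7 of these windows that lies both inside the member region and before the start is printed 5′ to 3′ on the plus strand (RefSeq, GRCm38.p6), with each CpG in capitals; they were picked for the known roles of their genes after the values were seen. A single capital C at the end of a sequence is a C whose G lies just past the printed stretch. The first belong to osteoglycin (Ogn) and fibromodulin (Fmod), proteoglycans that bind collagen fibrils, and to Medag, a gene linked to fat cell formation.
Ogn (chr13:49607765-49608014, +): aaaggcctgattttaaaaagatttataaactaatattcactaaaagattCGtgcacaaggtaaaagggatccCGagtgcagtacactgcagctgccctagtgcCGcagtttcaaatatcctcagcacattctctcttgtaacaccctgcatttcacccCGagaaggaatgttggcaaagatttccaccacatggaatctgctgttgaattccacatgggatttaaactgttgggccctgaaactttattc
Fmod (chr1:134037004-134037253, +): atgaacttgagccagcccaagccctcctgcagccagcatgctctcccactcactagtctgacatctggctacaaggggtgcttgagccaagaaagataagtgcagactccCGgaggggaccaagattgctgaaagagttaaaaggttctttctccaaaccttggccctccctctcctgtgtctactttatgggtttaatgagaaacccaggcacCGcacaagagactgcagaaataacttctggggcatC
Medag (chr5:149413771-149413837, +): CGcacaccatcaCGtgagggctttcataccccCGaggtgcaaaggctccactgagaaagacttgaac
The next lie at starts of Zbtb20 and Maff, which encode a zinc-finger and a small Maf transcription factor, and of Dlg1, a scaffold protein of cell junctions.
Zbtb20 (chr16:43247155-43247283, +): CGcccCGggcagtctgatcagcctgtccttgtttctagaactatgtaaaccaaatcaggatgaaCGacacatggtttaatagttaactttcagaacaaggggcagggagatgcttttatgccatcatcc
Maff (chr15:79346497-79346599, +): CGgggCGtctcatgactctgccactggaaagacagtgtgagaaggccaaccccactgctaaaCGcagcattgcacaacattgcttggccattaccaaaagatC
Dlg1 (chr16:31695442-31695547, +): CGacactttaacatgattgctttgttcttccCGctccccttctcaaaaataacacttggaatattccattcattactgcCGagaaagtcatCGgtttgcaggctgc
The last, of the membrane protein gene Tmem267, is shown as a CpG-rich example; its region touched windows of 2 starts, with 22 (shown) and 50 CpGs, and Abca15 was the other gene with over 10, at 14.
Tmem267 (chr13:119487955-119488085, +): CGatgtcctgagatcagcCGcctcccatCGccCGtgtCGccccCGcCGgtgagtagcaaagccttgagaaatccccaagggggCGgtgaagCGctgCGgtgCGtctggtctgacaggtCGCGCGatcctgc

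The region at Ogn spanned 2724 bases (chromosome 13, 49607565 to 49610288) and covered its whole window, and its methylated fraction was 0.181 in PDGFRα+ cells against 0.849 in CD137+ cells. The region at Fmod spanned 757 bases (chromosome 1, 134036977 to 134037733), also covered the whole window, and had levels of 0.193 and 0.818. At Medag an 821-base region (chromosome 5, 149413771 to 149414591) had 0.193 and 0.805. The Medag window belongs to a start inside the gene, whose span begins at 149367641. Each of these levels is an average over its whole region, with 32 cytosines at Ogn and 18 at Fmod. The windows of both proteoglycan genes held only 4 (Ogn) and 3 (Fmod) CpGs, so the level at the starts themselves is not known. Dlg1 had the lowest PDGFRα+ level of the 7 genes shown, 0.0698 against 0.852 (chromosome 16, 31695442 to 31695868). Levels were 0.104 and 0.823 at Maff and 0.158 and 0.890 at Zbtb20, where the window belongs to 1 of several starts. At Tmem267 the PDGFRα+ level was 0.195 and the CD137+ level 0.911, the highest CD137+ level of the 7. Abca15, Ces2g, Cldn15, Il17rc, Ms4a2, Ms4a4d and Sec16b were the other protein-coding genes whose window was touched.

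Since both levels chose the regions, their values describe the selection. The PDGFRα+ level ran from 0.0394 to 0.20 with a median of 0.154, and the CD137+ level from 0.80 to 0.979 with a median of 0.852. The difference, PDGFRα+ minus CD137+, ran from -0.907 to -0.605 with a median of -0.708. Methylation was low but rarely absent in PDGFRα+ cells: only 5 regions were at 0.05 or less, 217 (12.4%) at 0.10 or less, and 943 (53.7%) lay above 0.15. No earlier state of either population was measured, so the data show a low level in PDGFRα+ cells and do not show a loss. At the other limit 853 regions (48.5%) had a CD137+ level under 0.85, 399 (22.7%) reached 0.90 and 113 (6.43%) reached 0.95. Only 42 regions (2.39%) were at once at 0.10 or less in PDGFRα+ and at 0.90 or more in CD137+. The selection therefore lies mostly close to its own limits, which have no gap beside them: 215 regions lay at 0.19 to 0.20 in PDGFRα+ cells, and 242 others with a high CD137+ level lay just above 0.20 and up to 0.21. Likewise 225 regions had a CD137+ level of 0.80 to 0.81, and 213 with a low PDGFRα+ level lay from 0.79 to just under 0.80. Median differences of the groups just inside (-0.671 at the PDGFRα+ limit and -0.652 at the CD137+ limit) and just outside (-0.650 and -0.644) were close.

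**Figure D1:**
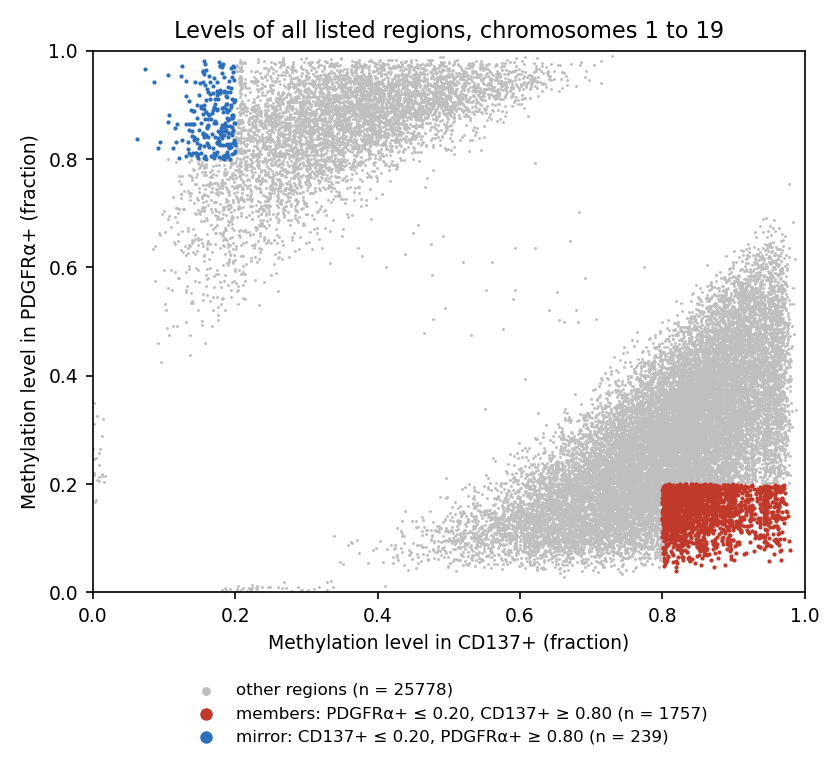
Each point is 1 of the 27774 listed regions, with its methylation level (a fraction) in the CD137+ library on the horizontal and in the PDGFRα+ library on the vertical axis. The 1757 member regions (red) form the lower right corner of a continuous cloud, and the 239 regions with the opposite pattern (blue) form the upper left corner.

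The opposite pattern, 0.20 or less in CD137+ and 0.80 or more in PDGFRα+ cells, was met by 239 regions (0.861% of all), called mirror regions here. There were 7.35 member regions for each mirror region, whereas there were 3.48 regions lower in PDGFRα+ cells for each higher one (21581 lower, 6193 higher). Member regions made up 8.14% of all lower regions and mirror regions 3.86% of all higher ones. Each chromosome from 1 to 19 held member regions, from 5.34% of its listed regions on chromosome 3 to 7.92% on chromosome 12.

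The widest differences at named genes fell on a mixed set of genes; regions away from such genes are left out of the order given here, among them 1 on chromosome 3 with a difference of -0.9003. The widest of all was in Slc7a2, which encodes a transporter of cationic amino acids: its 68-base region (chromosome 8, 40892213 to 40892280) had 6 cytosines and levels of 0.0596 in PDGFRα+ and 0.966 in CD137+ cells, a difference of -0.907. A second region in Slc7a2 had 0.114 and 0.861, and no other region was listed for the gene. Among named genes Atp11a, a phospholipid flippase, followed with 0.0582 against 0.9497 in 375 bases, and F5, coagulation factor V, with 0.0774 against 0.967 in 411 bases. The 10 widest at named genes also held Orc1 (0.0717 and 0.957), a subunit of the origin recognition complex, and Fosl2 (0.0939 and 0.978), a transcription factor of the AP-1 family. Further down came Brinp2 (0.0877 and 0.965), then Sema3a (0.0983 and 0.970), a secreted guidance factor, and Sdc2 (0.0914 and 0.963), a cell-surface heparan sulfate proteoglycan. A region shared by Lrrc47 and Smim1 had 0.0911 and 0.961, and Emilin2, a matrix glycoprotein, had 0.0853 and 0.952. Each of these 10 regions had few cytosines, 4 to 6 except for the 14 at F5, so that few sites stand behind each level. The lowest PDGFRα+ level in the set, 0.0394, was in a 107-base region of chromosome 14 away from genes, followed by a region in Cnot6l (0.0464), a subunit of the deadenylase complex that shortens mRNA tails.

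The area statistic is the table's own score, whose formula is not given in the sources used here. Regions with the largest values, sign aside, were mostly long. The largest in the set, -795, lay away from genes, and the order given here is that at named genes. Syne2, a giant protein that ties the nucleus to the cytoskeleton, had the most cytosines of all member regions, 68 in 1298 bases (chromosome 12, 75827088 to 75828385), with levels of 0.1903 and 0.8088 and a statistic of -775. Bicc1, an RNA-binding protein, came next at named genes with 46 cytosines in 2002 bases (0.0970 and 0.884, statistic -672), and Arhgap15, a Rac GTPase-activating protein, with 51 in 1210 bases (0.135 and 0.853, statistic -625). Many cytosines thus stand behind these, unlike the widest differences. Trf, the iron carrier transferrin, had 0.120 and 0.808 over 37 cytosines, and Slc9a4, a sodium-proton exchanger, had 0.109 and 0.888 over 34. Gfi1, a transcriptional repressor of blood cell development, had 0.147 and 0.873 over 47 cytosines. A region beside Nxt1 and Gzf1 had 0.166 and 0.832, one in Tgfbr3 0.0996 and 0.892, and one in Wwox 0.197 and 0.898. Prdm16, a regulator of brown and beige fat identity, had 0.1496 against 0.904 over 30 cytosines in 1016 bases (chromosome 4, 154568745 to 154569760), and was the only 1 of its 16 listed regions to meet both limits. The 6 longest regions at named genes lay at Fis1 and Cldn15 (2780 bases), Cenpp and Ogn (2724 bases), Bicc1, Kank2 (1813 bases), the small heat-shock genes Cryab and Hspb2 (1687 bases) and St3gal4 (1671 bases). Where 2 genes are named, their spans or flanks overlap and the region belongs to both.

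Member regions were somewhat longer and poorer in CpG cytosines than the other lower regions. Their median length was 260 bases (quartiles 149 and 422, range 51 to 2780) against 220 for the other 19824 lower regions and 222 for the mirror regions. They held a median of 8 cytosines (quartiles 6 and 13, range 4 to 68) against 9, and the median density was 3.57 cytosines per 100 bases (quartiles 2.53 and 4.96) against 4.61. Cytosines of both strands are counted in this density. Dense regions were scarce: 26 member regions (1.48%) reached 10 cytosines per 100 bases against 1316 (6.64%) of the other lower regions, while 643 (36.6%) against 3665 (18.5%) lay under 3. At 800 bases or more there were 80 member regions (4.55%) against 380 (1.92%). The same sparse make-up was present in the other lower regions with a difference of at least 0.6 that miss 1 of the limits: these 3495 regions had a median of 254 bases and 3.497 cytosines per 100 bases, 1.55% of them reached 10 and 36.2% lay under 3. Length and density are thus shared with other wide differences, and were set by the same caller on the same comparison.

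**Figure D2:**
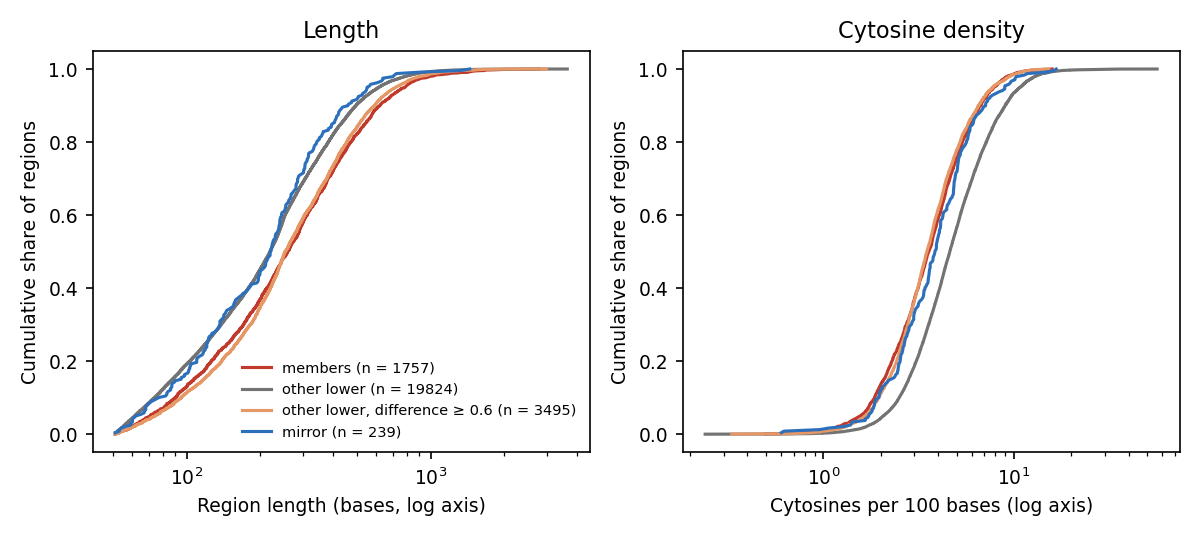
Cumulative share of regions by length in bases (left) and by CpG cytosines per 100 bases (right), both on log axes, for member regions, the other lower regions, those of them with a difference of at least 0.6, and mirror regions. The member curve runs with that of the other wide differences, to the right of the other lower regions in length (medians 260 and 220 bases) and to the left in density (3.57 and 4.61).

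At equal numbers of cytosines the member regions were also longer than the other lower regions. With 4 to 5 cytosines the median was 125 bases against 101, with 6 to 9 cytosines 209.5 against 160, with 10 to 19 cytosines 369 against 285, and with 20 or more 640 against 492. In the other wide differences these medians were 139, 219.5, 374 and 610. The densest member region lay where Coro7 and Vasn overlap (chromosome 16, 4642202 to 4642308), with 17 cytosines in 107 bases, 15.9 per 100, and levels of 0.122 and 0.958. The sparsest lay in Timp2, an inhibitor of matrix metalloproteinases (chromosome 11, 118351569 to 118352374), with 4 cytosines in 806 bases, 0.496 per 100, and levels of 0.0921 and 0.942. Within the set the level hardly followed density. Across the 1757 regions Spearman's rank correlation between density and the PDGFRα+ level was -0.000593 and between density and the CD137+ level 0.0366, and that between both levels was 0.0760; these describe regions of the same pair of libraries, within limits that cut off both ranges. The CD137+ level went weakly with length (Spearman's rank correlation -0.187): the 399 regions at 0.90 or more had a median of 188 bases against 284 for the 853 under 0.85. The 42 regions at both outer ends had a median of 158 bases and 4.33 cytosines per 100 bases. Of these 42, 32 (76.2%) lay in or within 2 kb of a protein-coding gene, against 55.2% of all member regions. This small group is 1 of several cuts of the set. The share was 55.8% for the 217 at 0.10 or less in PDGFRα+ and 59.4% for the 399 at 0.90 or more in CD137+. It was 56.1% for the 403 regions that met limits of 0.15 and 0.85.

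Member regions lay in or near protein-coding genes about as often as the other lower regions did, with intervals that overlap, and less often than mirror regions. Of the 1757, 926 (52.7%) overlapped the span of a protein-coding gene, 44 (2.50%) lay within 2 kb beside one, 170 (9.68%) overlapped another kind of gene, 33 (1.88%) lay beside one and 584 (33.2%) lay away from any gene. The share in or within 2 kb of a protein-coding gene was 55.2% (970 regions, Wilson 95% interval 52.9 to 57.5) against 52.9% (52.2 to 53.6) of the other lower regions. It was 62.8% of the higher regions and 69.0% (62.9 to 74.6) of the mirror regions. Member regions were thus placed like other lower regions and farther from genes than regions with the opposite pattern. Their median distance to the nearest end of a protein-coding gene was 35847 bases, against 38318.5 for the other lower, 19782 for the higher and 21865 for the mirror regions. All these intervals cover counting error only and treat regions as independent.

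Along a gene, member regions were spread nearly evenly, with the largest share in part 2 of 5. For the 701 that lie in genes of known strand, the gene was divided from 5′ to 3′ into 5 equal parts. These held 18.97%, 23.3% (20.3 to 26.5), 19.4%, 19.4% and 18.97% of them. The part next to the 5′ end thus held 18.97% (16.2 to 22.0) of member regions, against 20.4% of the other lower, 27.6% (26.0 to 29.3) of the higher and 32.5% (24.7 to 41.4) of the 117 mirror regions. Member regions showed no crowding at the 5′ end of genes, which higher and mirror regions did. A promoter window was overlapped by 0.824% of member regions (0.491 to 1.38), 0.582% of other lower (0.484 to 0.7003), 1.36% of higher (1.10 to 1.69) and 3.46% of mirror regions (1.77 to 6.68), and the interval of member regions overlaps that of the other lower and that of the higher regions.

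**Figure D3:**
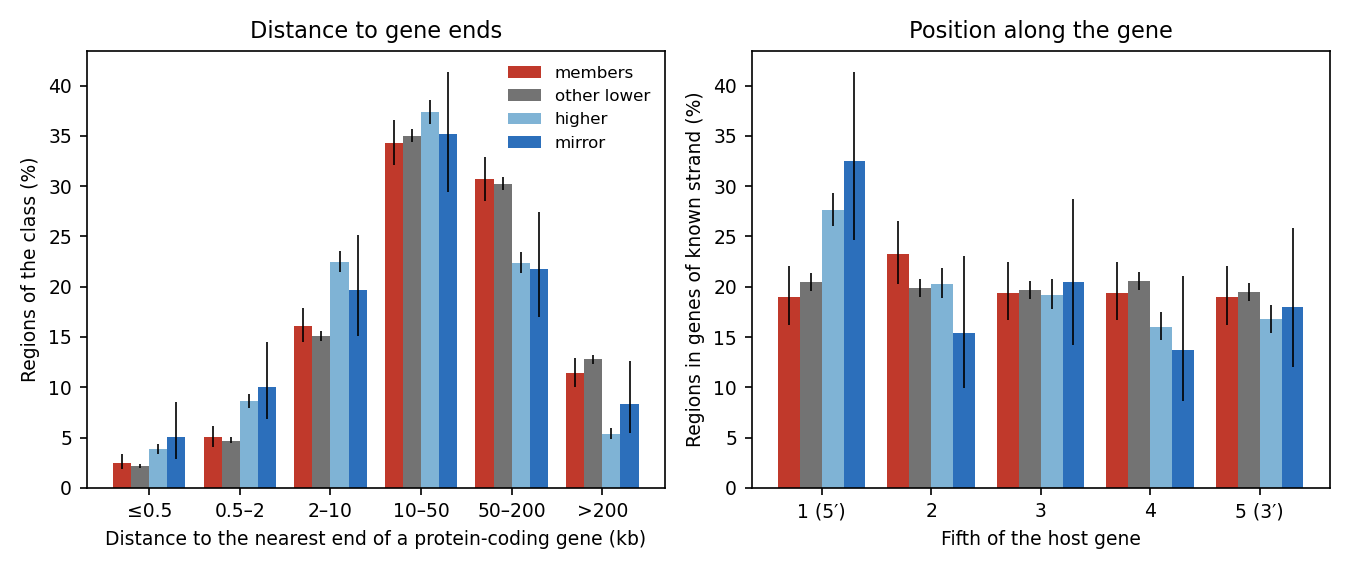
Share of regions (%) by distance to the nearest end of a protein-coding gene in kb (left) and by position in 5 equal parts of the host gene from 5′ to 3′ (right), with bars for 4 classes of regions and lines for Wilson 95% intervals. Member regions (red) follow the other lower regions (grey), and the part next to the 5′ end holds 18.97% of member regions against 27.6% of higher and 32.5% of mirror regions.

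Member regions stood singly. With a gap of up to 5 kb joined, 1725 stood alone and 16 pairs formed, and no larger group. A listed region of any kind lay within 5 kb of 386 (22.0%), and the nearest one was also lower in PDGFRα+ cells for 331 of these (85.8%) but met both limits for only 26 (6.74%); for the other lower regions 6.00% of such neighbours were members. Pairs within named genes were found in Epb41l5, Prelp, Adarb1, Ahnak2, Thada, Col5a1 and the agouti gene (a). In agouti, which encodes a secreted antagonist of melanocortin receptors, the gap was 340 bases and the levels were 0.0914 and 0.81 in the first region and 0.168 and 0.843 in the second (chromosome 2, 155030951 to 155031970). In Prelp, a proteoglycan that anchors basement membranes, they were 0.0923 and 0.817, and 0.181 and 0.806, with 1302 bases between. Single member regions were thus the rule. Only regions that differ between the libraries are listed, so low methylation shared by both beside them was not seen.

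A total of 871 protein-coding genes, 4.22% of 20661, held at least 1 member region in their span or within 2 kb, and these were 13.8% of the 6332 genes with any listed region. They were long genes, with a median length of 102 kb against 47.4 kb for genes with a region but no member and 17.5 kb for all. The share with a member region was 0.763% below 10 kb, 2.47% from 10 to 50 kb, 9.18% from 50 to 200 kb and 27.1% from 200 kb up, while the number of member regions per 100 kb of gene was 0.182, 0.106, 0.108 and 0.0860 in the same order. These rates count regions in the 2 kb flanks but divide by gene length alone, which raises them most for short genes. Long genes held member regions more often, but the rates cannot rank short against long genes by density. In 535 of the 871 genes each listed region was lower in PDGFRα+ cells, and 336 also held a higher one. For 208 of those 535 only member regions were listed, and these are lower by the rule. The other regions of the same genes were lower in 79.7% of 3085 cases (78.2 to 81.1), against 71.1% of 11355 regions (70.3 to 71.9) of genes without a member region. A mirror region was found in 167 of the 6332 genes with a listed region. Of these 167, 24 also held a member region, close to the 13.8% among all 6332. Among the 24 were Celf2, Gas7, Msi2, Foxp1, Hspg2 and Cdh13. Of other gene kinds, 261 of 12408 long noncoding RNA genes (2.10%) held a member region, among them Airn (0.164 and 0.879), which overlaps Igf2r, Mir99ahg (0.126 and 0.806) and Mir100hg (0.191 and 0.901), which host miRNAs, and D5Ertd615e with 2.

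Most genes had 1 member region; 115 had 2 or more and 22 had 3 or more. Inpp4b, Tgfbr3 and Thada had 4 each. In Inpp4b, a phosphatase of phosphoinositide signalling, the 4 of 7 listed regions had PDGFRα+ levels of 0.192, 0.107, 0.179 and 0.0924 and CD137+ levels of 0.908, 0.814, 0.828 and 0.814 from low to high coordinate. In Tgfbr3, betaglycan, a co-receptor for TGF-β ligands, all 14 listed regions were lower in PDGFRα+ cells, and the 4 that met both limits had 0.169, 0.184, 0.0996 and 0.195 against 0.818, 0.862, 0.892 and 0.8095. In Thada 4 of 12 had 0.166, 0.160, 0.0772 and 0.0471 against 0.804, 0.964, 0.826 and 0.819, and the last pair lay 1635 bases apart. Among Inpp4b, Tgfbr3 and Thada, the levels of these member regions varied most in Thada, within limits that cut off both ranges. Coro2b, an actin-binding coronin, had 3 of 4 listed regions in the set (0.182, 0.180 and 0.153 against 0.806, 0.951 and 0.890). Wwox had 3 of 39 and Bicc1 3 of 16, so a high count can go with a small share. The other genes with 3 were Anks1b, Arhgap15, Celf2, Cntn5, Frmd4a, Frmd4b, Fstl4, Lsamp, Mast4, Mthfd1l, Plxdc2, Psd3, Rbfox1, Rora, Srgap2 and Zbtb7c. In 208 genes each listed region met both limits, but for 201 of these it was the only one; the 7 others were Ahnak2, C1rl, Drd3, Epb41l5, Prelp, Slc7a2 and Tmem184b, each with 2.

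**Figure D4:**
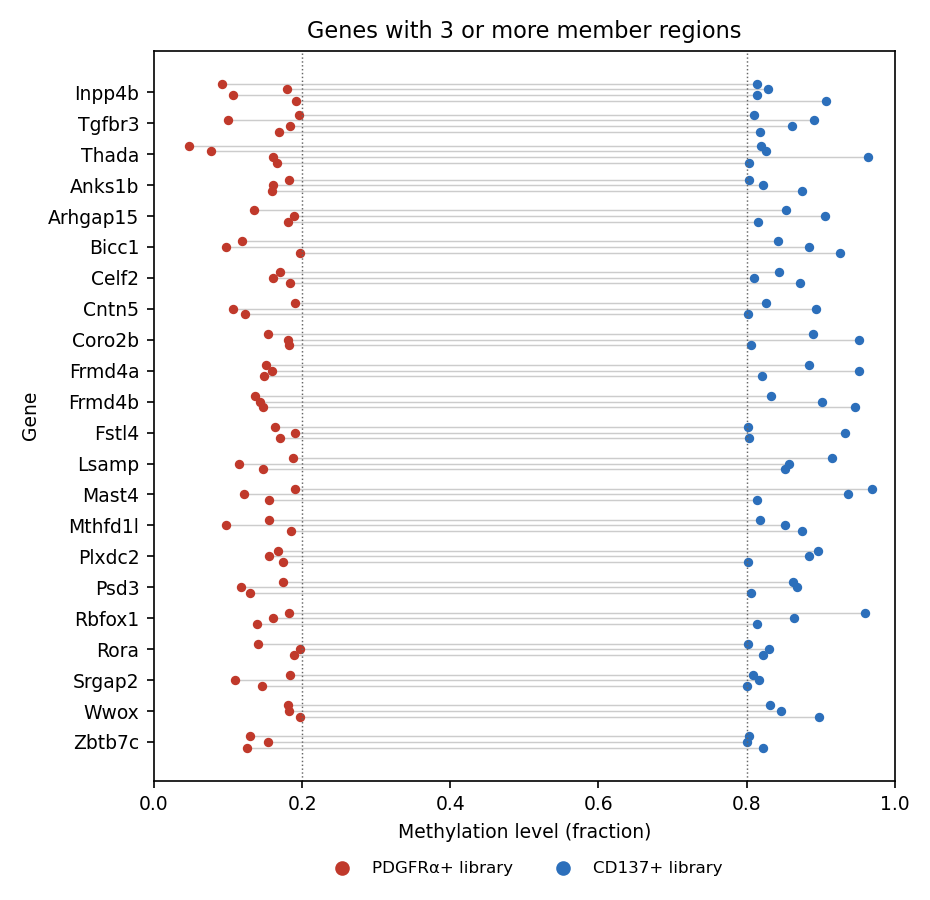
Methylation level (fraction, horizontal axis) of each member region in the 22 genes with 3 or more (vertical axis), with the PDGFRα+ library in red, the CD137+ library in blue and a line joining the values of 1 region. Dotted lines mark the limits of 0.20 and 0.80, and the lowest point is a Thada region at 0.0471.

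Gene classes were read from 20 lists, and 67 of 549 distinct listed genes (12.2%) held a member region. Because listed genes are often long, each count stands beside the share over protein-coding genes of the same length classes. That share does not allow for the number of listed regions in a gene. Of all listed regions at protein-coding genes 6.32% were members. The share was higher in the matrix protease and inhibitor (16.5%), structural matrix (10.5%), clock, DNA methylation, glucocorticoid, Hippo and TGF-β and BMP lists. In the other lists it was lower, among them other transcription factors (3.93%), Wnt (5.49%) and regulators of fat cell formation (6.17%). Highest stood a list of proteases that cut extracellular matrix, their inhibitors and ADAMTS-like (Adamtsl) proteins, which lack the protease domain. In this list, called the matrix enzyme list here, 10 of 33 genes held one (30.3%, against 8.66% at the same lengths), and 58.8% of the 17 with any region. Adam12, Adamts17, Adamts2 and Adamtsl1 had 2 member regions each. Mmp14, a membrane-bound collagenase, had a 682-base region within 2 kb of the gene (chromosome 14, 54443578 to 54444259) with 0.114 against 0.909. Timp2, described above, had 0.0921 against 0.942, and Adamtsl4 had 0.129 against 0.947. Adamts5 (0.165 and 0.856), Adamts9 (0.162 and 0.815) and Mmp19 (0.172 and 0.8103) completed the group. All listed regions were lower in PDGFRα+ cells in 7 of these 10 genes, the others being Adamts17, Adamts9 and Adamtsl1.

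Structural matrix genes came next, with 10 of 39 (25.6%, against 7.93%). Col5a1, a chain of fibrillar collagen V, had 2 member regions (0.131 and 0.849, 0.193 and 0.866). Col6a1 (0.185 and 0.853) and Col6a2 (0.114 and 0.854), chains of the microfibrillar collagen VI, had 1 each, and the region in Col6a2 spanned 1224 bases. Basement-membrane genes were represented by the laminin chains Lama2 (0.163 and 0.825) and Lama4 (0.0852 and 0.848) and by the laminin linker Nid1 (0.183 and 0.972). The remaining genes were Sparc (0.0914 and 0.835), a collagen-binding glycoprotein, the fibulins Fbln1 (0.151 and 0.924) and Fbln2 (0.188 and 0.844), and the tenascin Tnc (0.189 and 0.855). Lama4, Sparc and Col6a2 had the lowest PDGFRα+ levels of the group. Of the integrins, the cell's matrix receptors, 2 of 20 (10%, against 7.39%) had a member region, Itga10 (0.152 and 0.832) and Itga7 (0.148 and 0.858).

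Among regulators of fat cell formation, 5 of 24 (20.8%, against 8.32%) held 1 each: Prdm16 and Zfp521, which act on brown fat and early progenitor fate, Ppargc1a, a coactivator of mitochondrial genes, Klf15 and Lpin1. Levels ran from 0.123 (Lpin1) to 0.179 (Klf15) in PDGFRα+ and from 0.861 (Zfp521) to 0.904 (Prdm16) in CD137+ cells. Among adipocyte products and lipid enzymes only 1 of 30 (3.33%, against 4.01%) did, Mgll, monoglyceride lipase (0.111 and 0.860). The glucocorticoid response list had 4 of 24 (16.7%, against 7.36%). In it Zbtb16, a strongly glucocorticoid-induced transcription factor, had 2 (0.145 and 0.944, 0.0765 and 0.828), Fosl2 had the region given above, and Klf9 (0.168 and 0.830) had 1. Both libraries received dexamethasone, and an untreated library is not analysed here. These values compare the libraries, and a part of the drug in them cannot be told apart. Of the clock genes 2 of 22 (9.09%, against 5.11%) were reached, Rora with 3 regions and Nr1d1 with its only listed one (0.126 and 0.898).

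The list of other transcription factors had 9 of 40 genes (22.5%, against 12.2%). Foxp1, Nfia, Zbtb16 and Zbtb20 had 2 member regions each, and Erg, Runx3, Tcf7l2, Tshz2 and Zeb1 had 1. Zeb1, a repressor of epithelial genes, had a single listed region (0.103 and 0.858). Of homeobox and patterning genes 3 of 40 (7.50%, against 4.37%) were reached, among them Hoxa3 (0.196 and 0.813) and Pknox2 (0.156 and 0.833). Hoxa3 thus had 1 of its 13 listed regions in the set, although all 13 were lower in PDGFRα+ cells.

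In the Hippo pathway, whose kinases restrain YAP and TEAD, 5 of 30 genes (16.7%, against 7.30%) held one: the angiomotin Amotl1, which binds YAP, had 2 (0.102 and 0.944, 0.153 and 0.923), and Stk3, the kinase MST2 (0.195 and 0.946), Ptpn14 (0.194 and 0.939), Limd1 (0.186 and 0.849) and Vgll4, a TEAD cofactor (0.161 and 0.833), had 1. Tead1, the gene the study is titled after, had 8 listed regions and none in the set: its 3 lower regions had PDGFRα+ levels of 0.302 to 0.444, and the other 5 were higher in PDGFRα+ cells. In the Wnt list 5 of 37 genes (13.5%, against 5.44%) did, the receptors Lrp6 (0.193 and 0.962), Ror1 (0.188 and 0.908), Ror2 (0.136 and 0.866) and Ryk (0.162 and 0.877) and the transcription factor Tcf7l2 (0.1901 and 0.889). Of the TGF-β and BMP list 4 of 35 (11.4%, against 7.37%) did, Tgfbr3 with 4, and Tgfb3 (0.173 and 0.807), Ltbp2 (0.165 and 0.947) and the ubiquitin ligase Smurf1 (0.185 and 0.894) with 1. Of the receptor tyrosine kinases 1 of 30 (3.33%, against 9.86%) did, Fgfr1 (0.163 and 0.858 over 1610 bases), although 22 had a listed region. That low count depends on the list, since Ror1, Ror2 and Ryk, also receptor tyrosine kinases, were counted under Wnt only. It depends on the limits as well: at 0.25 and 0.75 it was 9 of 30, where 9.73% of all protein-coding genes held a region. Pdgfra itself had 1 listed region, with levels of 0.2102 and 0.7694, which misses both limits by a small margin, and Tnfrsf9 had none. Of the actin cytoskeleton list 5 of 36 (13.9%, against 11.7%) did, Actn4 and Dlc1 with 2 each, and Arhgap10, Limk2 and Palld.

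Lists for other cell types and for general functions held 1 gene or none, which is near the share of genes of their lengths. Mesothelial genes had 1 of 15 (6.67%, against 4.44%), Muc16 (0.157 and 0.9504). Endothelial genes had 1 of 20 (5%, against 5.46%), Erg (0.188 and 0.889), and immune genes 1 of 22 (4.55%, against 4.37%), Vav1 with 2 regions (0.195 and 0.874, 0.110 and 0.837). In these last 2 lists many listed regions went the other way: 9 of 35 regions at immune genes and 17 of 35 at endothelial genes were lower in PDGFRα+ cells, against 11457 of 15347 at all protein-coding genes, and Erg itself had 5 higher regions of 8. DNA methylation machinery had 1 of 19 (5.26%, against 4.84%), Dnmt3l (0.194 and 0.910), a cofactor of de novo methylation. Ribosomal protein genes had 0 of 28 (against 0.763%) and mural cell genes 0 of 18 (against 4.76%). The lists were chosen with earlier results of these data known, and no test was made on any of them. At stricter limits of 0.15 and 0.85, where 232 protein-coding genes (1.12%) held a region, the matrix enzyme list kept 6 genes and the structural matrix list 1.

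**Figure D5:**
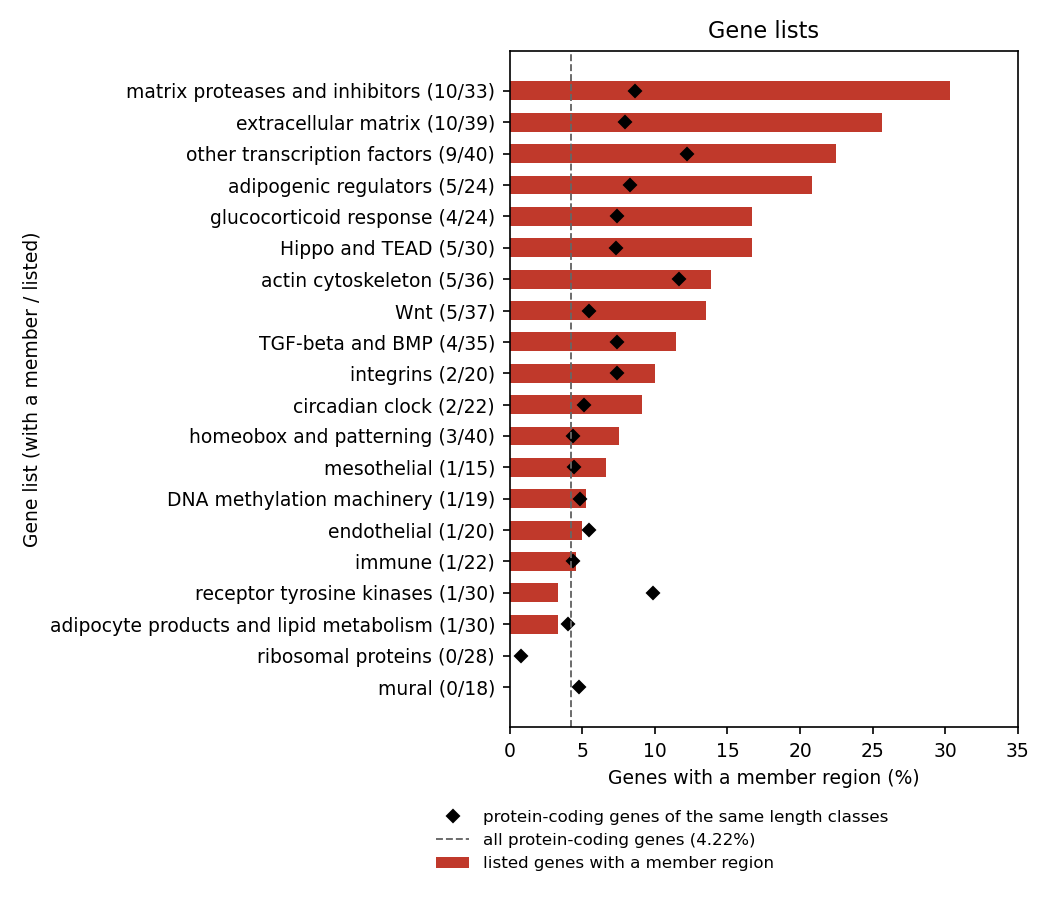
Share of listed genes (%) with a member region for 20 gene lists, with counts beside each name, a diamond for the share over protein-coding genes of the same length classes and a dashed line at 4.22% for all protein-coding genes. The matrix enzyme list (30.3%) and the structural matrix list (25.6%) lie farthest to the right. Receptor tyrosine kinases (3.33%) lie left of their diamond at 9.86%. Their count depends on the limits (9 of 30 genes at 0.25 and 0.75) and leaves out Ror1, Ror2 and Ryk, counted under Wnt. The diamonds do not allow for the number of listed regions in a gene.

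In all, 5 of 1136 miRNA genes (0.440%) lay in or within 2 kb of a member region, 6.41% of the 78 with a listed region of any kind, and the sequences of 2 show which mature miRNAs they give (RefSeq, GRCm38.p6, seed in capitals, which is bases 2 to 8 and pairs with targets). Mir199a-1, on the minus strand within Dnm2 (chr9:21496495-21496564), lay 86 bases from a 272-base region with 0.185 against 0.940 over 12 cytosines; its products are abundant in mesenchymal cells.
miR-199a-5p: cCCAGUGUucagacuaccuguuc
miR-199a-3p: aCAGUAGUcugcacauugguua
Mir449a, on the plus strand within Cdc20b (chr13:113037534-113037624), lay 1120 bases from a region with 0.197 against 0.963 over 10 cytosines, and its neighbour Mir449b is the fifth gene.
miR-449a-5p: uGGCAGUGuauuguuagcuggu
The seeds of the 3 printed miRNAs differ from one another. Mir7039, 1622 bases from the region in Smurf1, and Mir3109, 1676 bases from a region with 0.158 against 0.824, were the others.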

How the data were processed

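The data are whole-genome bisulfite sequencing of 1 CD137+ and 1 PDGFRα+ library. The authors deposited 1 table of differentially methylated regions on genome build mm10, per the submitters' processing notes. Per the file headers it gives the methylation level of each library as a fraction, their difference, an area statistic (a score), the number of cytosines and the length. For the aligner, the region caller, its thresholds and the coverage, the entry is "not given in the sources used here", so depth is unknown and levels carry no interval. Region starts count from 0 in the deposited table: after adding 1, each of the 242 first bases and 233 last bases that fall inside a promoter window is a C or G of a CpG. Printed coordinates count from 1.

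Member regions were taken by the 2 limits and joined to RefSeq gene spans of GRCm38.p6 with 2 kb on each side (Python 3.11.15, pandas 2.3.3, numpy 2.4.6, scipy 1.17.1, matplotlib 3.10.9). The overlap code was checked on 300 genes by direct comparison, with 0 differences, and tested on simulated data. Density is cytosines per 100 bases. Shares carry Wilson 95% intervals. Of the listed symbols 562 matched a gene and 7 did not. Promoter windows of chromosome 18 are not used here. A few genes counted in the lists are not reported here by name. Named genes are those with the 10 widest differences, the 10 largest statistics, the 6 longest regions, the most member regions, and up to 4 per list, with Tead1, Pdgfra and Tnfrsf9 always; gene models without a proper name were left out. Genes named at promoters, miRNAs, pairs, density extremes, as noncoding RNAs, as holders of both patterns or beyond 4 per list were chosen after their values were seen. The members and lists were chosen with earlier results of these data known. Alternatives were other limits, minimum numbers of cytosines, other flanks, the midpoint in place of overlap, chromosome X, merged neighbours and a pooled density.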

Additional observations from a re-analysis of the deposited data

Results flagged for a closer look

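Chromosome X was outside the selection, which covers chromosomes 1 to 19, yet 55 of its 365 listed regions also met both limits. That is 15.1% (Wilson 95% interval 11.8 to 19.1) against 6.33% of the regions on chromosomes 1 to 19, where single chromosomes ranged from 5.34% to 7.92%. These 55 regions had median levels of 0.158 in PDGFRα+ and 0.884 in CD137+ cells, a median length of 228 bases and 3.19 cytosines per 100 bases. They include a region in Bcor, a transcriptional corepressor (0.148 and 0.929), and 2 each in Enox2, Sh3kbp1, Arhgap6, Plac1, Dlg3 and Pir. The sex of the mice is not given in the sources used here, and its part in this was not tested.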

How the results depend on the processing

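The number of member regions depends on the limits: 403 regions met 0.15 and 0.85, 5023 met 0.25 and 0.75, and 732 of the 1757 had 10 or more cytosines. With chromosome X it was 1812, with at least 5 cytosines 1518 and with neighbours within 1 kb merged 1755. The share in or near a protein-coding gene was 52.7% with the gene span only and 61.5% with 10 kb on either side. Median length was 228 bases at 0.15 and 0.85, 273 at 0.25 and 0.75, and 425 with 10 or more cytosines. Median density was 3.74 cytosines per 100 bases with 10 or more cytosines, and all cytosines over all bases gave 3.26. Listed genes with a member region were 22 at 0.15 and 0.85 and 138 at 0.25 and 0.75, against 67, while 232 and 2010 protein-coding genes held one. The structural matrix list then had 1 and 18 genes and the matrix enzyme list 6 and 12; with the gene span only the latter had 7. Receptor tyrosine kinases had 0 and 9 of 30, against 1. No paired analysis was possible because each group has 1 library. No library can be left out, the depth behind a level is unknown, and regions with few cytosines rest on few sites.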

Other observations

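Member regions lay at 3 small leucine-rich proteoglycans, Ogn, Fmod and Prelp, and the rest of this family, which organises collagen fibrils, was looked up after these values were seen. Of 15 family genes on chromosomes 1 to 19, 9 had a listed region, each had only regions lower in PDGFRα+ cells, and 3 held a member region. The 3 are the genes that prompted the look-up. Over all protein-coding genes 11457 of 15347 listed regions were lower and 4.22% of genes held a member region. Dcn, decorin, had 6 listed regions, all lower and none in the set, and Epyc had 2 lower regions. Optc, Podn, Aspn and Omd had 1 lower region each. Lum, Kera, Chad, Ecm2, Podnl1 and Tsku had none. Prelp and Fmod are neighbours on chromosome 1, and Aspn, Omd and Ogn are neighbours on chromosome 13, so these genes are not independent places. No test was made on this family.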
